A study of Mus musculus with 8 samples.

Results

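The genes of 6 amino acid transporter families (Slc1a, Slc3a, Slc7a, Slc36a, Slc38a and Slc43a) were followed in neonatal mouse hearts. A gene belonged to the set when its symbol began with a family name, ignoring case and leaving out pseudogene symbols with -ps, and where a symbol had several loci the locus with the highest mean was taken. This gave 42 genes out of 34422 distinct symbols at 80155 loci, of which 39614 carried a symbol. The Slc7a family gave 15 members, Slc38a 11, Slc1a 7, Slc36a 4, Slc43a 3 and Slc3a 2. Slc7a5 was not analysed here. A symbol is not a function: Slc7a6os is named for its place opposite Slc7a6 and is not itself a transporter, and Slc43a3 is known as a carrier of purine nucleobases.

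RNA-seq had been performed on hearts of male Hsd:ICR(CD-1) mice aged 1 day (P1) or 7 days (P7) after birth, with 4 hearts per stage and 1 library per heart. Both stages came from the same outbred stock, no mouse was treated or genetically modified, the atrial appendages had been cut away and the hearts had been flash frozen, so that each library holds the RNA of all cell types of the remaining organ. Expression is given as FPKM, fragments per kilobase of transcript, scaled to the number of mapped reads of the library. The labels give each heart an animal of its own but no litter. The p-values below set the difference of the stages against the spread of these 8 hearts within their stages.

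Cells take up amino acids through membrane carriers that are driven by sodium, by protons or by exchange against another amino acid. The Slc1a genes encode carriers of glutamate, aspartate and small neutral amino acids, Slc38a the sodium-coupled carriers of glutamine, alanine and other neutral amino acids, Slc36a proton-coupled carriers of small amino acids, and Slc7a the carriers of cationic amino acids and the light chains that reach the cell surface bound to a heavy chain of Slc3a. Some members, such as Slc38a7, Slc38a9 and Slc36a1, are known from the lysosome, where amino acids are sensed by the growth regulating kinase complex mTORC1.

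Of the 42 members, 28 reached an FPKM of 1 in at least 1 heart and were tested, and 19 reached it in every heart. All 3 Slc43a members, 10 of 11 Slc38a members, 4 of 7 Slc1a members, 7 of 15 Slc7a members, 3 of 4 Slc36a members and 1 of 2 Slc3a members were among the 28. The remaining 14 were Slc1a2, Slc1a6, Slc1a7, Slc3a1, Slc7a3, Slc7a8, Slc7a9, Slc7a11, Slc7a12, Slc7a13, Slc7a14, Slc7a15, Slc36a3 and Slc38a8. Slc38a3, Slc7a4 and, in 1 heart, Slc38a11 reached this level in P7 and not in P1, and Slc1a1 in P1 and not in P7, so that these 4 were admitted to the test by the stage in which they were higher.

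The neutral amino acid carriers of Slc38a supplied most of the transporter RNA. Slc38a2, a sodium-coupled carrier of small neutral amino acids, had the highest mean FPKM of the set (95.4), followed by Slc38a6 (51.1), Slc38a4 (30.9), Slc38a1 (17.9) and Slc43a3 (11.9), and these 5 were the members with a mean of at least 10. Slc38a2, Slc38a6 and Slc38a4 together held 53.2% to 68.2% of the summed FPKM of the 42 members in a heart. All members together summed to 251 to 364 FPKM in the P1 hearts and 249 to 327 FPKM in the P7 hearts. By family, the sums were 196 to 279 and 175 to 238 for Slc38a, 21.5 to 32.4 and 27.5 to 34.0 for Slc7a, and 10.8 to 16.8 and 11.4 to 13.1 for Slc1a. The ranges of the stages overlapped for these 3 families and for Slc36a (6.95 to 10.6 and 9.39 to 13.0) and Slc43a (9.38 to 16.1 and 13.4 to 24.3), but not for Slc3a (6.17 to 9.82 and 10.3 to 13.3), whose sum is nearly all Slc3a2.

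**Figure D1:**
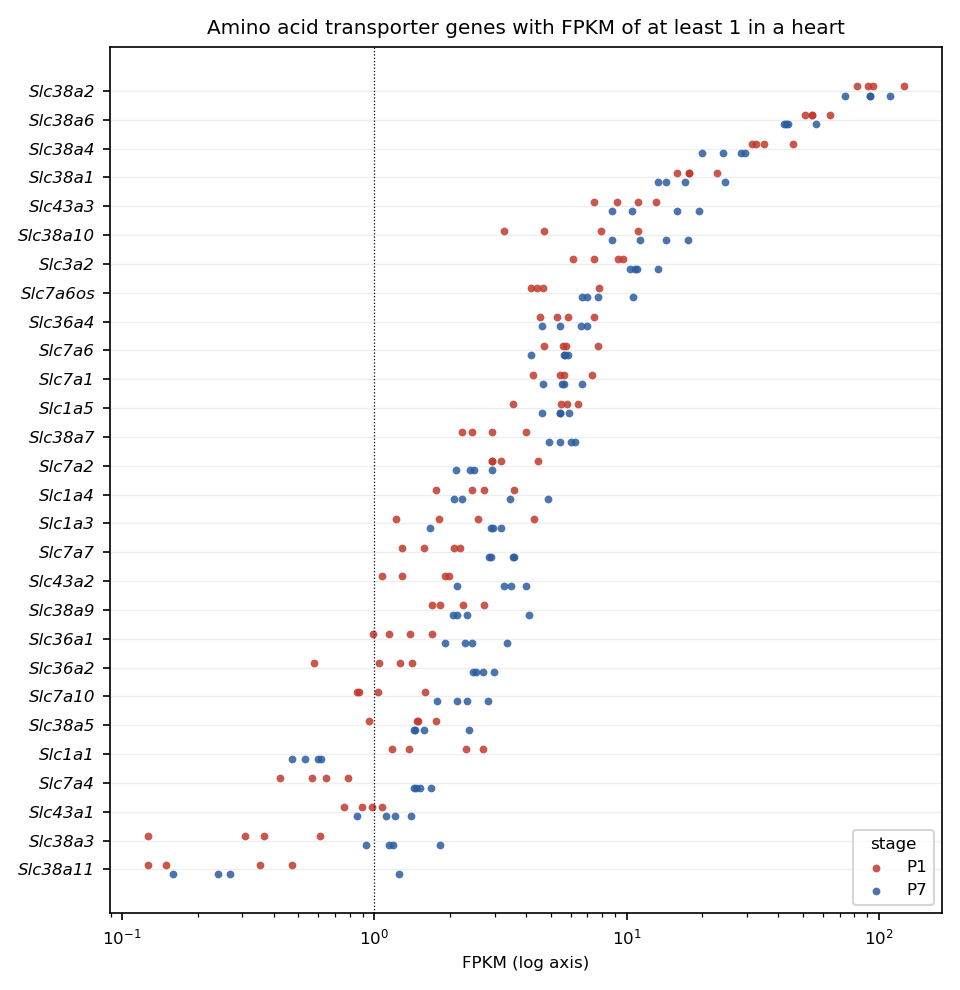
FPKM of the 28 members with at least 1 FPKM in a heart, ordered by mean, on a log axis. Each point is 1 heart (red P1, blue P7) and the dotted line marks an FPKM of 1. Slc38a2, Slc38a6 and Slc38a4 stand at the top in both stages, and Slc1a1 shows P7 hearts below the line where its P1 hearts lie above it.

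Between the ages, Slc36a2 and Slc38a7 were higher in P7 hearts and Slc1a1 was lower. These genes were called differentially expressed because their limma p, adjusted over all tested loci, was under 0.05 and their mean FPKM differed by a factor of 1.5 or more. That is 3 of 28 tested members, set against 8.14% of the 17960 annotated loci tested (7.74% called higher and 0.401% called lower) and 3.82% of all 43172 tested loci, so the count is near the background. The median log2 fold change, P7 minus P1, was 0.17 over the 28 members, with 21 of them above 0, and 0.19 over all annotated loci, of which 67.6% were above 0. An unadjusted p under 0.05 was found for 13 of the 28 and an adjusted p under 0.1 for 8. The share of annotated loci at these levels is not given here. These counts, and those at an unadjusted p under 0.05 in the lists and markers below, are therefore not set against a background. In 9 members every P7 heart lay above every P1 heart and in 3 every P7 heart lay below, where 17.3% and 2.69% of annotated loci did so, and in the other 16 members the stages overlapped. Slc38a3 and Slc7a4 among the 9, and the called Slc1a1 among the 3, passed the filter only through the stage in which they were higher. These counts are therefore a description. All fold changes are on the scale of log2(FPKM + 1), which understates the change of genes with low values.

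Slc1a1 encodes a sodium-coupled carrier of glutamate, aspartate and cysteine (chr19:28835049-28913960 on GRCm38, plus strand). Its FPKM in the P1 hearts was 1.17, 1.37, 2.30 and 2.70, and in the P7 hearts 0.471, 0.533, 0.597 and 0.612. Every P7 heart was thus below the lowest P1 heart, and the P1 hearts spread more widely than the P7 hearts. The mean fell from 1.89 ± 0.733 (SD, n = 4) to 0.553 ± 0.0647 (SD, n = 4), a log2 fold change of -0.86 (SE 0.21, limma adjusted p = 0.0435). By the whole-fragment steps of the FPKM values, these levels correspond to about 76 to 151 fragments on the longest transcript in P1 and 25 to 40 in P7. The deposited locus of Slc1a1 ran on past the gene, to position 28967800. The same span was given to the locus of Ppapdc2 (Plpp6) on the same strand, at 2.96 to 4.14 FPKM in P1 and 5.09 to 7.18 in P7. Of the 8257 annotated exon bases of Slc1a1, 2631 are shared with 4430402I18Rik on the opposite strand, a gene at 3.51 to 7.78 FPKM in P1 and 2.99 to 7.43 in P7. Whether strand was used in the counting is not given in the sources used here, and how fragments in the shared bases were assigned was not tested.

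The other tested members of Slc1a showed no separation of the stages. Slc1a5, an exchanger of glutamine and other neutral amino acids and the highest member of the family, had 6.39, 5.49, 3.56 and 5.78 FPKM in P1 and 5.44, 5.90, 5.45 and 4.63 in P7. Its log2 fold change of 0.03 (SE 0.20, adjusted p = 0.934) was below 0 under median-ratio scaling (-0.17) and under quantile normalization (-0.19). The neutral amino acid exchanger Slc1a4 and the glutamate carrier Slc1a3 also overlapped. Slc1a2, Slc1a6 and Slc1a7, glutamate carriers best known from brain and retina, stayed below an FPKM of 1 in every heart.

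Of the heavy chains, Slc3a2 (the surface antigen CD98hc) had 9.716, 7.464, 6.147 and 9.238 FPKM in P1 and 11.02, 10.78, 13.29 and 10.29 in P7. The lowest P7 heart was above the highest P1 heart, but the log2 fold change of 0.45 (SE 0.19) had an adjusted p of 0.236, and the ratio of the means was 1.39. The 5 measured light chains that can bind it (Slc7a6, Slc7a7, Slc7a8, Slc7a10 and Slc7a11, without Slc7a5, a main partner that was not analysed here) summed to 7.61 to 11.6 FPKM in P1 and 10.05 to 12.69 in P7. The level of Slc3a2 was thereby 0.775 to 1.04 times that of these light chains in P1 and 0.868 to 1.09 times in P7, and these ranges overlapped. Slc3a1, the heavy chain of the cystine carrier of kidney and gut, and its partner Slc7a9 did not exceed 0.102 and 0.0579 FPKM. Slc3a1 shares 601 of 2271 exon bases with the much higher Prepl on the opposite strand (12.7 to 17.4 FPKM in P1, 10.4 to 14.7 in P7). Its own estimate was 1 to 5 fragments in P1 and 0 to 2 in P7.

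Among the light chains, Slc7a7, which exchanges cationic for neutral amino acids, had 2.07, 2.20, 1.29 and 1.58 FPKM in P1 and 3.54, 2.86, 3.57 and 2.90 in P7. Slc7a10, a carrier of glycine, serine and other small amino acids, had 0.869, 1.03, 0.853 and 1.58 in P1 and 2.81, 2.13, 1.77 and 2.33 in P7. In both genes the stages did not overlap, yet neither passed the test, with log2 fold changes of 0.61 (SE 0.19, adjusted p = 0.0971) and 0.65 (SE 0.19, adjusted p = 0.0888). Slc7a6, with the same kind of exchange as Slc7a7, had 4.69 to 7.74 FPKM in P1 and 4.19 to 5.86 in P7 and a log2 fold change of -0.12 (SE 0.19, adjusted p = 0.712). Slc7a10 and Slc7a7 share 377 and 232 exon bases with Lrp3 and Oxa1l on the opposite strand, and both of those had higher values in P7 (Lrp3 0.972 to 2.34 in P1 and 2.45 to 6.10 in P7, Oxa1l 13.3 to 25.8 and 28.8 to 36.2). How fragments in the shared bases were assigned was not tested. The locus of Slc7a6os, with 4.17, 4.43, 4.64 and 7.75 FPKM in P1 and 6.66, 6.95, 10.6 and 7.69 in P7, overlapped between the stages (log2 fold change 0.54, SE 0.22, adjusted p = 0.218). Another locus with this symbol, left out for its lower mean, had 0.6534 to 1.3908 FPKM in P1 and 0.4165 to 0.7885 in P7.

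The carriers of cationic amino acids within Slc7a gave log2 fold changes of either sign, none of which passed the test. Slc7a2, which carries arginine and lysine, had 2.933, 2.937, 3.187 and 4.476 FPKM in P1 and 2.926, 2.098, 2.482 and 2.385 in P7. The stages were separated by the narrowest of margins, between 2.926 in the highest P7 heart and 2.933 in the lowest P1 heart, and the log2 fold change was -0.33 (SE 0.19, adjusted p = 0.361). Slc7a2 shares 635 exon bases with Gm26584 on the opposite strand. The only other deposited locus in its span carries the symbol AC116511.1 and had 0.5175 to 0.6546 FPKM in P1 and 0.1819 to 0.3782 in P7. Whether it is Gm26584 under another name was not tested. Slc7a1, the main arginine carrier of many cells, overlapped, with 5.65 FPKM on average. Slc7a4, a relative of these carriers without a settled substrate, had 0.787, 0.567, 0.642 and 0.424 in P1 and 1.52, 1.67, 1.46 and 1.43 in P7, with separated stages and a log2 fold change of 0.66 (SE 0.18, adjusted p = 0.0618). It shares 554 exon bases with P2rx6 on the opposite strand, itself at 0.0368 to 0.237 FPKM in P1 and 0.383 to 0.659 in P7.

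Slc36a2, a proton-coupled carrier of proline, glycine and alanine (chr11:55158470-55185077, minus strand), was the member with the lowest adjusted p. It had 1.27, 1.04, 0.575 and 1.41 FPKM in the P1 hearts and 2.71, 2.46, 2.54 and 2.97 in the P7 hearts. All P7 hearts were above all P1 hearts, and the P7 hearts lay close together. The mean of the 4 hearts was 1.07 ± 0.366 (SD) in P1 and 2.67 ± 0.226 (SD) in P7. The log2 fold change was 0.84 (SE 0.19, limma adjusted p = 0.0330) and rests on about 24 to 66 fragments per P1 heart and 90 to 121 per P7 heart. No other annotated gene lay within the span of its locus.

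Its neighbour on the same chromosome, Slc36a1, known as the proton-coupled carrier of the lysosome membrane, had 1.14, 1.38, 0.987 and 1.69 FPKM in P1 and 3.34, 2.29, 2.43 and 1.90 in P7. The stages were separated, but the log2 fold change of 0.60 (SE 0.20) had an adjusted p of 0.122. Slc36a4, the highest member of the family, overlapped, with 4.52 to 7.45 FPKM in P1 and 4.64 to 7.00 in P7. Its log2 fold change was 0.03 (SE 0.20, adjusted p = 0.928) and turned to -0.17 under median-ratio scaling and to -0.21 under quantile normalization.

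Slc38a7, a glutamine carrier described at the lysosome membrane (chr8:95835920-95853539, minus strand), was the third differentially expressed member. It had 2.93, 2.44, 2.23 and 4.01 FPKM in P1 and 6.25, 5.44, 4.94 and 6.01 in P7. The lowest P7 heart lay above the highest P1 heart. Means over 4 hearts were 2.90 ± 0.792 (SD) and 5.66 ± 0.587 (SD), with a log2 fold change of 0.79 (SE 0.19, limma adjusted p = 0.0418) on about 118 to 213 fragments in P1 and 257 to 343 in P7. Slc38a3, a carrier of glutamine and histidine prominent in liver and brain, had 0.610, 0.306, 0.127 and 0.366 FPKM in P1 and 0.925, 1.18, 1.82 and 1.14 in P7. It was separated as well, with the largest ratio of means among the separated members (3.60), but on 7 to 42 fragments in P1 and 41 to 90 in P7 its log2 fold change of 0.74 (SE 0.21) had an adjusted p of 0.0688.

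No abundant member of Slc38a was called with the values as deposited. Slc38a4, a sodium-coupled carrier of neutral amino acids that is imprinted in the mouse, had 32.6, 31.6, 35.0 and 45.7 FPKM in P1 and 28.5, 19.97, 29.5 and 24.2 in P7. All P7 hearts were below all P1 hearts, with a log2 fold change of -0.49 (SE 0.20, adjusted p = 0.213) as deposited and of -0.72 under median-ratio scaling, where it passed the test. Slc38a2 had 94.5, 90.4, 81.8 and 126 FPKM in P1 and 111, 73.8, 92.7 and 92.7 in P7, with overlapping stages and a log2 fold change of -0.08 (SE 0.21, adjusted p = 0.824), and this small difference was 0.12 after correction for GC content. Slc38a6, whose substrate is less well known, and the glutamine carrier Slc38a1 also overlapped, with log2 fold changes of -0.27 (adjusted p = 0.416) and -0.11 (adjusted p = 0.760). The hearts of a stage spread widely in Slc38a10, with 7.92, 4.71, 3.26 and 11.1 FPKM in P1 and 14.3, 11.3, 17.6 and 8.80 in P7. Its stages overlapped, and its log2 fold change of 0.93 (SE 0.31) had an adjusted p of 0.132.

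In the Slc43a family, Slc43a2, a sodium-independent carrier of large neutral amino acids such as leucine, had 1.98, 1.29, 1.08 and 1.91 FPKM in P1 and 4.00, 3.47, 3.26 and 2.13 in P7. The stages did not overlap, although P7 replicate 4 (2.13) came close to the highest P1 heart (1.98), and the log2 fold change was 0.71 (SE 0.21, adjusted p = 0.0853). Slc43a2 shares 922 exon bases with Gm45606 on the opposite strand. Slc43a3 overlapped, with 7.41 to 13.1 FPKM in P1 and 8.80 to 19.4 in P7 and a log2 fold change of 0.35 (SE 0.26, adjusted p = 0.445).

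**Figure D2:**
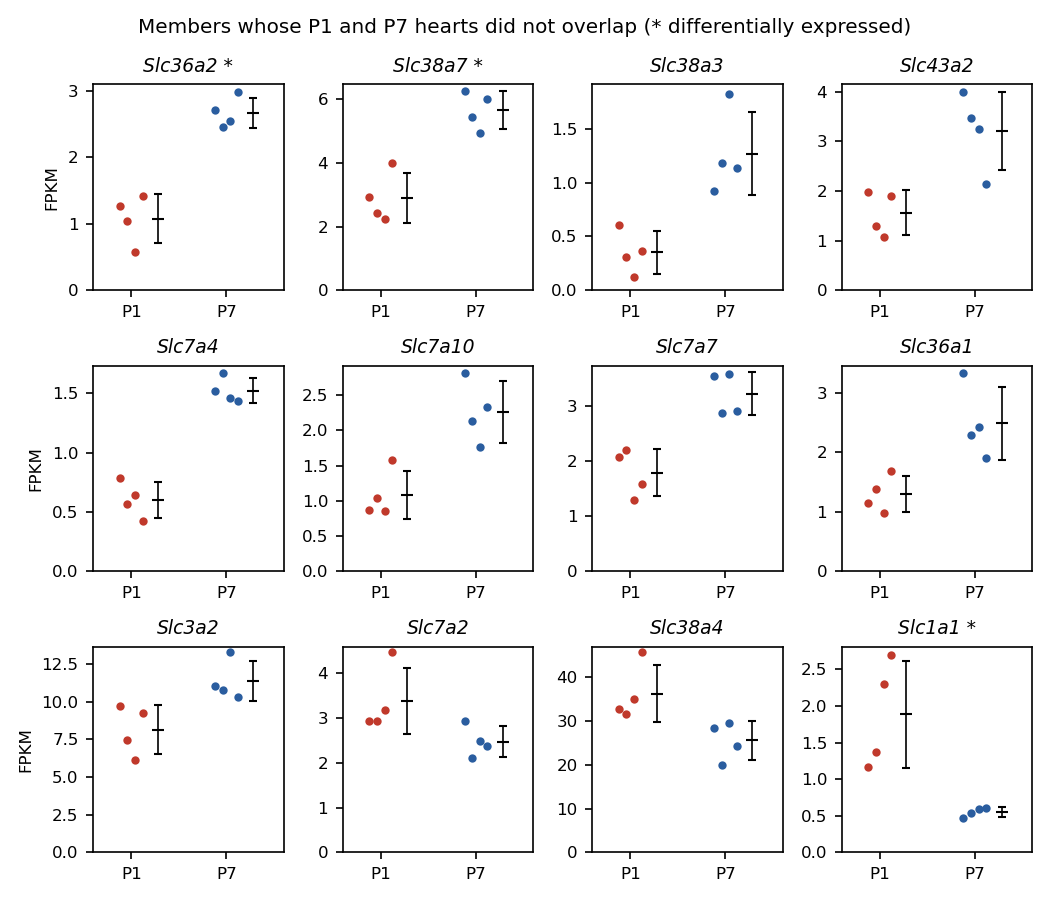
FPKM (vertical axes, starting at 0) of the 12 tested members whose P1 (red) and P7 (blue) hearts did not overlap, each point 1 heart, with the mean and SD of the 4 hearts beside them. An asterisk marks the differentially expressed genes Slc36a2, Slc38a7 and Slc1a1. The P7 hearts lie higher in 9 members and lower in Slc7a2, Slc38a4 and Slc1a1.

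The hearts also differed in a way that ran through the members. P1 replicate 4 held the highest P1 value of 22 of the 28 tested members and P1 replicate 3 the lowest of 18, whereas in P7 no heart was highest in more than 12 or lowest in more than 9. The median ratio of annotated loci to their geometric mean over the hearts was 1.16 in P1 replicate 4 and 0.801 in P1 replicate 3, and 0.942 to 1.27 in P7. The FPKM totals ranged from 1038650 to 2136937, and loci without a symbol took 33.1% to 72.7% of them. Rescaling each heart by its median ratio moved the median log2 fold change of annotated loci from 0.19 to 0.0095, and called 1445 annotated loci higher and 659 lower in place of 1390 and 72. Relative to this centre Slc36a2 and Slc38a7 stayed higher in P7, and Slc38a4 and Slc7a2 joined Slc1a1 as lower. Each of the 12 separated members kept its sign under all alternatives in which it could be fitted. Median-ratio scaling, quantile normalization and GC correction were the only alternatives that could have changed a sign, since separated hearts fix it in the others.

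The calls were sensitive to single hearts. With 1 heart left out, Slc1a1 passed the test only without P1 replicate 1, and Slc36a2 and Slc38a7 only without P1 replicate 4. The other 6 omissions left 0 members called by limma, with an unadjusted p under 0.05 in 10 to 12 members. The share of annotated loci called fell as well, from 8.14% with all hearts to 0.935% to 5.67% in these 6 fits. Loci called higher in P7 had a median transcript GC content of 56.2% and those called lower 46.6%, against 49.2% of all annotated loci tested. After correction of each heart for GC content limma called 0 of the 28 members, 8 of which had an unadjusted p under 0.05. Of annotated loci, 2.29% were called after this correction. The GC content of the called members was 51.7% for Slc36a2, 55.2% for Slc38a7 and 48.0% for Slc1a1.

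**Figure D3:**
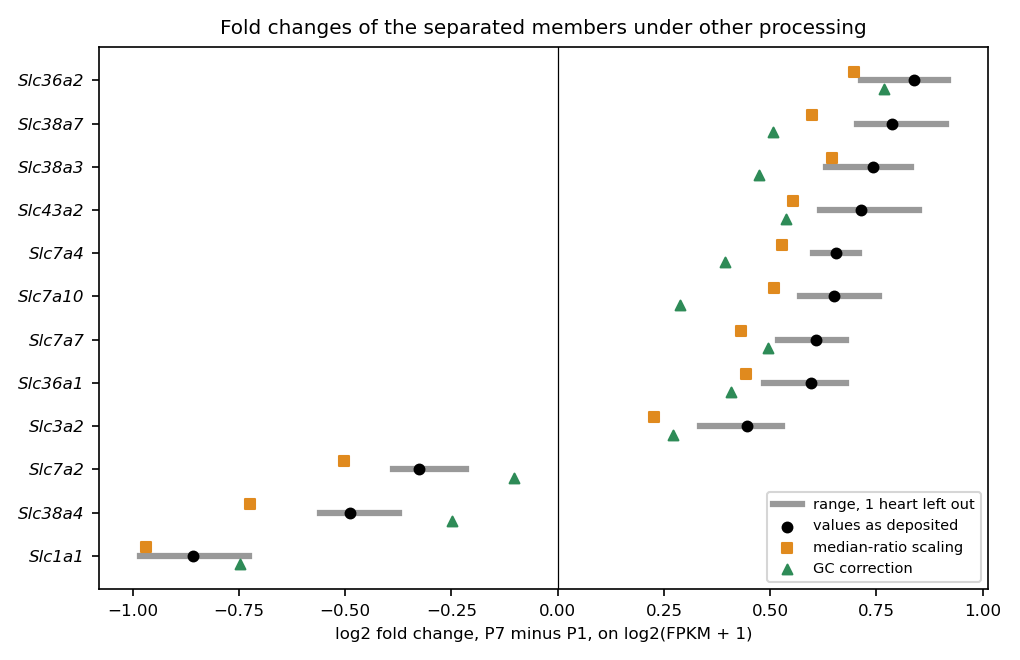
Log2 fold changes (P7 minus P1, on log2(FPKM + 1)) of the 12 separated members with the values as deposited (black points), the range over 8 fits with 1 heart left out (grey bars), median-ratio scaling (orange squares) and correction for GC content (green triangles). Each mark keeps the sign of the black point, and the squares lie to the left of it in every member.

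In whole hearts, fewer cells of a type and less RNA per cell cannot be told apart, so markers of the cell types were summed per heart. The 5 cardiomyocyte markers summed to 16688 to 29399 FPKM in P1 and 18907 to 30609 in P7 and were thus present in all hearts, with 0 called by limma and 1 at an unadjusted p under 0.05. Fibroblast markers summed to 410 to 740 FPKM in P1 and 941 to 1144 in P7, with Col1a1, Dcn and Tcf21 called higher among 5 genes, and the endothelial sum 63.6 to 121 and 107 to 163, with Cdh5 and Tie1 called among 5. Of annotated loci tested, 7.74% were called higher. The 5 leukocyte markers summed to 12.94 to 16.81 and 20.01 to 29.46, and the 7 erythroid markers found to 1637 to 3852 and 3745 to 5026, with 0 called by limma in each and 3 and 5 genes at an unadjusted p under 0.05. Smooth muscle and pericyte markers summed to 266 to 552 and 214 to 328 with Pdgfrb called higher among 4, while Acta2, which makes up most of this sum, was at 214 to 455 in P1 and 90.7 to 199 in P7 (log2 fold change -0.90, adjusted p = 0.126). Markers of dividing cells summed to 108 to 141 and 73.5 to 168. Markers of nerve, fat and lung reached at most 7.38, 6.45 and 3.24 FPKM in sum, and no marker found was at 0 in every heart. Liver markers summed to 49.0 FPKM in P1 replicate 1 and 28.2 in P1 replicate 3. In P1 replicates 2 and 4 the liver sum was 0.905 and 1.36, and in P7 it was 1.33 to 8.54. The part of these shifts in the results of the transporters was not tested.

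Among 19 other amino acid transporters outside the 6 families, 9 were tested and limma called 0, with 6 at an unadjusted p under 0.05. With 8.14% of annotated loci called, a count of 0 among 9 is near the background. The median log2 fold change of the 9 was 0.43, against 0.19 for annotated loci. The taurine carrier Slc6a6 was the most abundant (25.0 to 35.5 FPKM in P1 and 40.3 to 46.5 in P7, log2 fold change 0.43, adjusted p = 0.230). The aromatic amino acid carrier Slc16a10 (adjusted p = 0.960) and the lysosomal cystine carrier Ctns (log2 fold change 0.68, adjusted p = 0.113) followed it in level.

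Genes that handle the carried amino acids gave 4 called of 20 tested, all higher in P7, with a median log2 fold change of 0.52, where 8.14% of annotated loci were called, 1390 of 1462 of them higher, with a median of 0.19. Glul, which makes glutamine from glutamate, had 27.6, 25.0, 19.1 and 33.8 FPKM in P1 and 89.8, 49.6, 72.7 and 49.6 in P7. It rose with separated stages (log2 fold change 1.26, SE 0.24, adjusted p = 0.0197). Gpt (1.12, adjusted p = 0.0323) and Gpt2 (1.21, adjusted p = 0.0141), the alanine aminotransferases, and Bckdha (1.16, adjusted p = 0.0220), a subunit of the enzyme complex that degrades branched-chain amino acids, also had higher values in P7. Got1, an aspartate aminotransferase, and Mat2a, which makes S-adenosylmethionine, were among the abundant genes of this list and were not called, with log2 fold changes of -0.02 and -0.33.

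Of the genes of lysosomal amino acid sensing, 29 of 31 were found and tested, and 4 were called, all higher in P7 as most called loci were (7.74% of annotated loci called higher and 0.401% lower), with a median log2 fold change of 0.26 against 0.19 for annotated loci. They were the transcription factors of lysosome genes Tfeb (8.45 to 16.5 FPKM in P1 and 24.4 to 32.0 in P7, log2 fold change 1.09, adjusted p = 0.0197) and Tfe3 (0.91, adjusted p = 0.0462), the arginine sensor Castor1 (1.01, adjusted p = 0.0286) and its relative Castor2 (0.94, adjusted p = 0.0213). The mTORC1 activator Rheb (log2 fold change 0.16, adjusted p = 0.676), at 70.5 to 123 FPKM in P1 and 95.4 to 146 in P7, was not called, nor were the other 24 tested, among them Lamtor1 and Sec13. Slc38a9, the member of the present set known as an arginine sensor at the lysosome, overlapped between the stages.

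**Figure D4:**
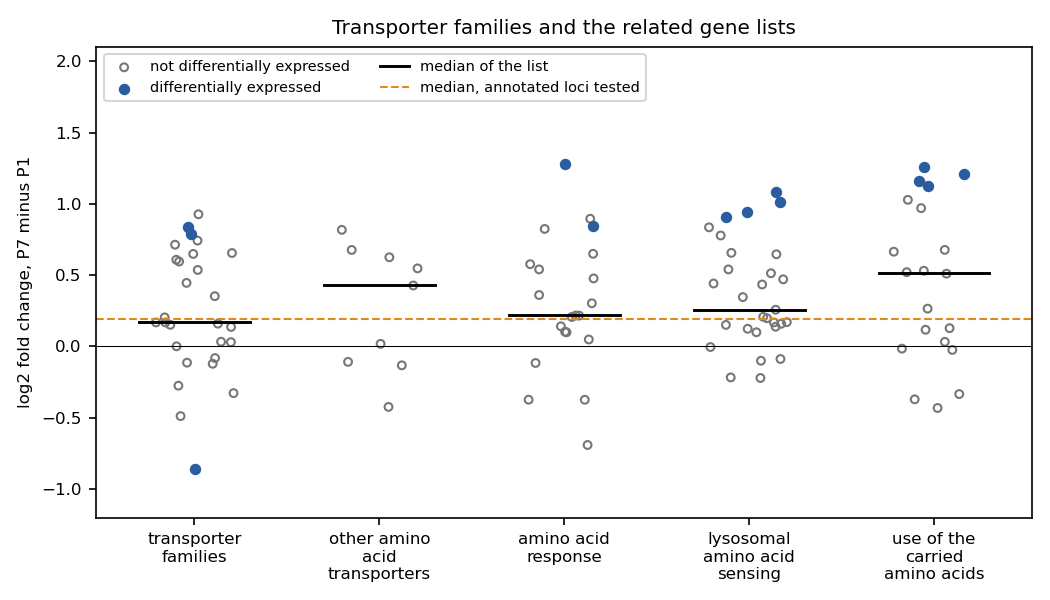
Log2 fold changes (P7 minus P1) of the tested genes of the transporter families and of 4 related lists. Each circle is a gene, filled where differentially expressed, black bars are list medians and the dashed line is the median of annotated loci (0.19). The transporter families have their median at 0.17, and the list for the use of the carried amino acids has the highest, at 0.52.

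The amino acid response, in which shortage of amino acids leads to translation of the transcription factor ATF4, gave 2 called of 21 tested, both higher in P7. This is near the 8.14% of annotated loci called, and the median of 0.22 is near their 0.19. Atf4 itself had 76.4, 61.1, 48.1 and 82.6 FPKM in P1 and 107, 117, 138 and 115 in P7, with a log2 fold change of 0.84 (SE 0.21, adjusted p = 0.0460). Ddit4, an inhibitor of mTORC1, rose from 2.43 to 4.96 FPKM in P1 to 7.25 to 14.1 in P7 (log2 fold change 1.28, SE 0.24, adjusted p = 0.0184). The lipoprotein receptor gene Vldlr (0.65, adjusted p = 0.160) and the tRNA synthetase Nars (-0.12, adjusted p = 0.753), which follow Atf4 in level, were not called. After correction for GC content limma called 0 of the 21 response genes (5 at an unadjusted p under 0.05), 2 of the 29 sensing genes and 2 of the 20 genes of amino acid use. With 1 heart left out these counts ranged from 0 to 5, 0 to 6 and 0 to 8, reaching 0 in all 3 lists without P1 replicate 2 and their highest values without P1 replicate 4.

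The letters TGATGNAA, the core of the element bound by C/EBP and ATF proteins, were searched on both strands in RefSeq promoters from 250 bases before to 50 after the start (GRCm38.p6). They were held by 3.97% of 32851 promoters, by 8 of 23 promoters of the amino acid response list (34.8%) and by 4 of 43 promoters of 32 matched transporter genes (9.30%), which belong to Slc1a4, Slc7a7 and Slc7a11, the light chain of the cystine and glutamate exchanger. Counted by gene, these are 3 of 32 members, beside 1219 of 27025 genes with a promoter. The windows of these members, and for comparison that of the asparagine synthetase Asns, are shown because they allow the members to be set beside a known target of ATF4, with the match in capitals and the letters read along the gene's strand. In the window of Slc1a4 the match is to the reverse, TTNCATCA. A further match of Slc7a11 (chr3:50443642-50443671) and of Slc7a7 (chr14:54417927-54417956) is not printed. That of Slc7a7 lies in overlapping promoters of the gene and was counted in each of them.
Slc7a11, chr3:50443661-50443690, minus strand: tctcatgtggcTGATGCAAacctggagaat
Slc7a7, chr14:54418067-54418096, minus strand: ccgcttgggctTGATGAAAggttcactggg
Slc1a4, chr11:20332699-20332728, minus strand: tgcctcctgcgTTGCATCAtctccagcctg
Asns, chr6:7693214-7693243, minus strand: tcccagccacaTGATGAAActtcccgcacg
A match is a description of letters and not a bound site. Of these 3 members, Slc7a7 had separated stages, Slc1a4 overlapped, with 1.76 to 3.58 FPKM in P1 and 2.06 to 4.89 in P7, and Slc7a11 remained at or below 0.354 FPKM in every heart. Asns had 1.37 to 2.91 FPKM in P1 and 0.919 to 1.52 in P7, with overlapping stages.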

How the data were processed

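Total RNA of 8 hearts was ribodepleted, made into libraries with the ScriptSeq v2 kit and sequenced as read pairs. Per the study's methods, the FPKM that the authors deposited for each locus and heart were made by a service provider, from reads mapped to GRCm38 and assigned to features of Ensembl release 70. The aligner and the use of strand in counting are not given in the sources used here.

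The members and gene lists were chosen with earlier results of these data known. Gene positions and transcript GC content were taken from GENCODE M21, and promoters from RefSeq. Loci that reached an FPKM of 1 in any heart were put on the log2 scale with a pseudocount of 1 and fitted with limma 3.58.1 (R 4.3.3), by lmFit and eBayes with a trend, on all 8 hearts without covariates. P-values were adjusted over all tested loci by the Benjamini-Hochberg method. A locus was called at an adjusted p under 0.05 together with at least a 1.5-fold difference of the means. The scripts were tested on simulated data. Python 3.11.15, pandas 2.3.3, numpy 2.4.6, scipy 1.17.1 and matplotlib 3.10.9 were used for tables and plots.

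Members were named in full when they were called, when the stages did not overlap, when they were among the 10 highest means or the highest of a family, or when they were a heavy chain of Slc3a. Of each related list, called genes and the 3 highest means were named. Other genes were named to describe a list or family. A gene that this rule selects is not reported here. GEO's replicate numbers were not used as pairs: the deviations of same-numbered hearts from their stage means correlated at -0.02, 0.12, -0.10 and -0.03.

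FPKM values of short loci moved in whole steps, of which 97.9% to 99.2% per heart lay within 0.05 of a whole number of fragments. A fragment on 1 effective kilobase was worth 0.0435 to 0.0681 FPKM, and an FPKM of 1 on a transcript of 2 kilobases stood for 26.4 to 42.1 fragments. Fragment numbers in the text are estimates from these steps and the longest transcript and cover counting error only. The alternatives tried were another pseudocount (0.1), sample quality weights, no trend in eBayes, a replicate block, correction for GC content, no filter or a filter that all hearts had to pass, quantile and median-ratio scaling of the hearts, and leaving out each heart.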

Additional observations from a re-analysis of the deposited data

Results flagged for a closer look

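Among the 44 groups of 4 hearts examined (22 named members, 2 stages), 4 held a heart whose distance to the nearest other heart was a large share of the whole range (above the critical value of Dixon's ratio), where chance flags about 1 in 20 groups, or 2.2 of 44. Slc38a6 in P7 replicate 1 stood at 56.2 FPKM against 42.0 to 43.6 in the other P7 hearts (ratio 0.887). Slc7a2 in P1 replicate 4 stood at 4.48 FPKM against 2.93 to 3.19 (ratio 0.835), and Slc7a6os in the same heart at 7.75 against 4.17 to 4.64 (ratio 0.868). Slc7a6 in P7 replicate 2 was the low case, at 4.19 FPKM against 5.67 to 5.86 (ratio 0.887).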

How the results depend on the processing

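The numbers of members called higher and lower in P7 (2 and 1 by limma with the values as deposited) depended on the processing. They stayed at 2 and 1 with a pseudocount of 0.1. They were 0 and 0 without a filter on low values, 4 and 0 with an FPKM of at least 1 in every heart (which leaves out Slc1a1 and Slc36a2), 2 and 3 under median-ratio scaling, 4 and 1 under quantile normalization, 6 and 1 with sample quality weights, 1 and 0 without a trend, 0 and 0 after GC correction, and 0 and 2 after GC correction with median-ratio scaling. Where both were 0, limma gave an unadjusted p under 0.05 for 13 members without the filter and for 8 after GC correction. The share of annotated loci called was 8.14% as deposited and 7.83% with a pseudocount of 0.1. It was 1.94% without the filter, 20.2% with the filter on every heart and 11.7% under median-ratio scaling. Quantile normalization gave 9.64%, weights 16.4%, no trend 5.24%, GC correction 2.29% and GC correction with median-ratio scaling 4.45%. With 1 heart left out, 0 to 5 members were called higher and 0 to 1 lower. The adjusted p of the 3 called members over the omissions was 0.0482 to 0.114 for Slc1a1, 0.0159 to 0.106 for Slc36a2 and 0.0109 to 0.147 for Slc38a7. The cause of these changes was not tested.

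With the replicate number as a block, 0 members were called higher and 0 lower, with 11 at an unadjusted p under 0.05, and 5.86% of annotated loci were called. With GC correction and the replicate block the counts were again 0 and 0, with 6 at that p, and 2.14% of annotated loci were called. The hearts share only a number, and not every heart correlated best with its own number. For the related lists the block left 0 other transporters, 1 response gene, 3 sensing genes and 4 genes of amino acid use called, and GC correction with the block left 0, 0, 1 and 2.

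The other amino acid transporters (0 called) gave 2 with the filter on every heart, 1 under median-ratio scaling, 1 under quantile normalization, 2 with weights and 1 after GC correction with median-ratio scaling (0 to 3 with 1 heart left out). The response genes (2 called) gave 1 without the filter, 5 with the filter on every heart, 7 with weights, 1 without a trend, 0 after GC correction and 1 with median-ratio scaling added (0 to 5). The sensing genes (4 called) gave 2, 7 and 8 in the first 3 of these settings and 2 after either GC correction without the block (0 to 6). The genes of amino acid use (4 called) gave 8 with weights and 2 after either GC correction (0 to 8).

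Of the tested members, Slc1a5, Slc36a4, Slc38a2, Slc1a3, Slc1a4, Slc7a1, Slc38a5 and Slc43a1 changed sign in at least 1 alternative, and none of them was called with the values as deposited. The last 5 ranged from -0.053 to 0.37, -0.15 to 0.30, -0.25 to 0.11, -0.11 to 0.25 and -0.076 to 0.31 over the alternatives. Slc1a5 (0.03) was -0.17 under median-ratio scaling, -0.19 under quantile normalization, -0.069 with weights, -0.32 after GC correction with and without the block and -0.52 with GC correction and median-ratio scaling, and -0.12 to 0.11 with 1 heart left out. Slc36a4 (0.03) was -0.17 and -0.21 under the 2 scalings, and -0.060 to 0.14 with 1 heart left out. Slc38a2 (-0.08) was 0.12 after GC correction with and without the block, and -0.17 to 0.045 with 1 heart left out. At these depths members with fewer than 100 estimated fragments per heart, such as Slc38a3 and the P7 values of Slc1a1, carry the widest counting error.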
